A study of Mus musculus with 4 samples.

Results

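The ribosome is built from ribosomal RNA and a fixed set of ribosomal proteins, most of them encoded by a gene of their own and present once per particle, with the stalk proteins Rplp1 and Rplp2 in several copies. Proteins named Rpl belong to the large (60S) subunit, which forms peptide bonds, and proteins named Rps belong to the small (40S) subunit, which reads the mRNA. Their genes are active in nearly every dividing cell, their promoters are mostly CpG-rich and lack a TATA box, and many of their transcripts start in a short run of pyrimidines, the TOP motif, through which translation follows the growth state of the cell. Some of these genes are known in mouse for patterning or pigment phenotypes when mutated, such as Rpl38, which shapes the axial skeleton.

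Promoters of cytosolic ribosomal protein genes were followed through 4 ATAC-seq peak lists. ATAC-seq maps open chromatin through the Tn5 transposase, which inserts sequencing adapters where DNA is accessible. Members were the protein-coding genes of GENCODE M21 (mm10) whose symbol starts with Rpl or Rps and a digit, plus Rplp0, Rplp1, Rplp2 and Rpsa, without Rps6 kinases and without names of the pseudogene type. This gave 86 genes of 21938 protein-coding genes. Of the 86, 77 encode a core ribosomal protein (46 of the large and 31 of the small subunit), and 9 are tissue-restricted paralogs or other genes that share the symbol (Rpl3l, Rpl7l1, Rpl10l, Rpl22l1, Rpl36al, Rpl39l, Rps19bp1, Rps27l and Rps27rt). A further 6 protein-coding genes with names such as Rpl9-ps6 were left out, and no library had a peak at any of the 6.

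The tissue was the posterior forelimb bud at E10.5 (35 somites) of Swiss Webster mice, a heterogeneous dissected tissue. The 2 WT libraries and the 2 Shh-/- libraries, homozygous for a null allele of the ligand Sonic hedgehog, each came from the limb buds of a single embryo, with 5000 cells per reaction and 18 PCR cycles. The comparison asks whether open chromatin at a housekeeping gene set differs with Hedgehog signaling. Values of the 4 libraries are given throughout in the order WT replicate 1, WT replicate 2, Shh-/- replicate 1 and Shh-/- replicate 2.

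The lists differed widely in length within each genotype, holding 39080, 11973, 5589 and 18459 peaks that covered 21.7, 6.04, 2.45 and 11.3 Mb. The depth of each library is unknown from the lists, and the study's methods state one nominal depth for all. A promoter without a peak was therefore not called, which does not mean that it was closed. Of 8 limb mesenchyme genes (Prrx1, Prrx2, Tbx5, Twist1, Msx1, Lhx9, Hand2 and Hoxd13), 8, 4, 2 and 4 had a promoter peak. Of genes of other cell types, 2, 0, 0 and 2 of 5 for ectoderm, 1, 0, 0 and 1 of 4 for endothelium, 2, 1, 0 and 1 of 4 for blood and 2, 1, 0 and 2 of 4 for muscle progenitors had one, and Cdh1, Trp63, Cdh5, Pecam1, Tie1, Gata1, Ptprc, Myf5 and Myod1 had none in any list. Their part in the results was not tested. The promoter of Shh itself had no peak in any library, so the peak lists do not check the genotype.

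The promoter sequences below, from 180 bases before to 30 bases from the transcription start site (TSS) on, are those the results return to. They were read from the RefSeq assembly GRCm38.p6 and run 5′ to 3′ on the strand of the gene. Capitals mark GGGCGG (the GC box of SP and KLF factors), CCGGAAGT (the core site of ETS factors such as GABP), AAGATGGC (the site of YY1) and TATAAA, each on either strand, and a pyrimidine tract (a C followed by at least 4 pyrimidines) that starts within 5 bases of the TSS. Rps19 and Rpl13a were among the members with the best-ranked promoter peaks, and Rps4x was the core gene called in the fewest libraries:
Rps19 (chr7:24884191-24884400, plus strand): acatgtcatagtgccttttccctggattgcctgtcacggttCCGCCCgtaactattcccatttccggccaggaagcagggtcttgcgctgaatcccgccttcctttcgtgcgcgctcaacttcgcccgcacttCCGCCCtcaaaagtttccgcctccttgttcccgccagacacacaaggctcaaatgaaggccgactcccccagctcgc
Rpl13a (chr7:45128732-45128941, minus strand): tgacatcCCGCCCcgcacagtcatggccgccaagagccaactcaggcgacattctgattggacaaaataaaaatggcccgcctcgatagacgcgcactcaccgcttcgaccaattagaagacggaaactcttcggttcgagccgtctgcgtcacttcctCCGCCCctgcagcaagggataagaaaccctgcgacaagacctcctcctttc
Rps4x (chrX:102189365-102189574, minus strand): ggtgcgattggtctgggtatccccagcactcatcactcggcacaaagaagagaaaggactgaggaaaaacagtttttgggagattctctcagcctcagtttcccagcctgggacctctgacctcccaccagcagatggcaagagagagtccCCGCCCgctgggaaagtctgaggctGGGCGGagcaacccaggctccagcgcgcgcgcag

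A second set shows the elements often described in this gene family, the TOP tract at the start site with an ETS or YY1 site nearby. Rpl30 holds a long tract with a YY1 site, Rpl37 a tract with an ETS site between GC boxes, and Rps18 an ETS site in 2 copies:
Rpl30 (chr15:34443193-34443402, minus strand): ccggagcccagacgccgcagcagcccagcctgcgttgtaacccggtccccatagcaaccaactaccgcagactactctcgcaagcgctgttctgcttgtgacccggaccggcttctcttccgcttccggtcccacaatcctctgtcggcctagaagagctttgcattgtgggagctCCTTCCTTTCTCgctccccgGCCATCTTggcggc
Rpl37 (chr15:5116465-5116674, plus strand): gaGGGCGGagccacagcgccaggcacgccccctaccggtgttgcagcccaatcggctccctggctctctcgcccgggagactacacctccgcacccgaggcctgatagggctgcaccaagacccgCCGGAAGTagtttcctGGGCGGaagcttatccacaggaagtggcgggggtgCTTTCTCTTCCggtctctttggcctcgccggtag
Rps18 (chr17:33955648-33955857, minus strand): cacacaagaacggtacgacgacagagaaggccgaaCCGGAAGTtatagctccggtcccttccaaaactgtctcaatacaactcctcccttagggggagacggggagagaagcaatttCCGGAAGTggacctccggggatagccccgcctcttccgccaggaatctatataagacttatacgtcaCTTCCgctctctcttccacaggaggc

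A promoter was counted as called in a library when a peak of its list overlapped, by at least 1 bp, the window that starts 2 kb before any annotated TSS of the gene and ends 1 kb after it. Ribosomal protein promoters were called in 82 of 86 cases in WT replicate 1 (95.3%, Wilson 95% interval 88.6 to 98.2), beside 60.4% of all protein-coding promoters. In WT replicate 2 there were 53 (61.6%, 51.1 to 71.2), beside 39.2% of all. In Shh-/- replicate 1 there were 30 (34.9%, 25.7 to 45.4), beside 17.3%, and in Shh-/- replicate 2 there were 80 (93.0%, 85.6 to 96.8), beside 51.3%. The share of ribosomal protein promoters was thus above that of all promoters in each library, and it followed the length of the list, with WT replicate 1 and Shh-/- replicate 2 close together and the other two lower. These intervals cover counting error only, and the members of a library share that library, so they say nothing of the spread between embryos.

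The core ribosomal proteins were nearly all called in the longer lists, with 77, 50, 29 and 75 of 77. The large subunit had 46, 29, 16 and 45 of 46 and the small subunit 31, 21, 13 and 30 of 31. The 9 paralogs and symbol matches were called less, with 5, 3, 1 and 5. Rpl7l1, a paralog of Rpl7, was the one of them called in every library, Rpl36al and Rps27l were called in all but Shh-/- replicate 1, and Rpl22l1 and Rps19bp1 in WT replicate 1 and Shh-/- replicate 2. Rpl3l (a striated muscle paralog), Rpl10l and Rpl39l (testis paralogs) and Rps27rt had no peak in any library.

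**Figure D1:**
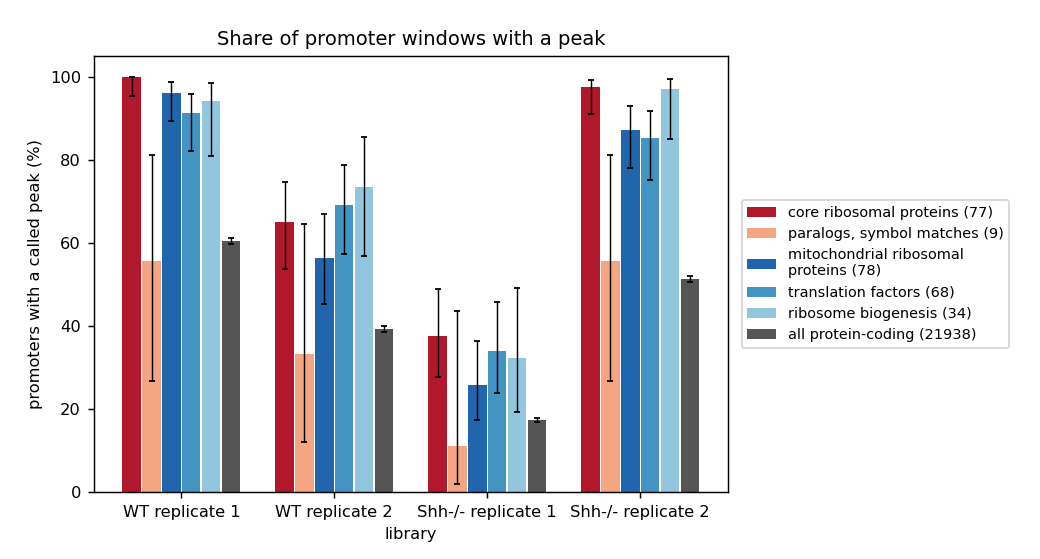
Share of promoter windows with a called peak (y axis, percent) in each of the 4 libraries (x axis) for the core ribosomal proteins, the paralogs and symbol matches, 3 other gene lists of protein synthesis and all protein-coding genes, with the number of genes in brackets; bars start at 0 and error bars are Wilson 95% intervals, which cover counting error only. Core ribosomal protein promoters reach 77 of 77 in WT replicate 1 and 29 of 77 in Shh-/- replicate 1.

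Other genes of protein synthesis had similar shares. The 78 mitochondrial ribosomal proteins, which build the ribosome of the mitochondrion, were called in 75, 44, 20 and 68 cases. Of 68 translation factors, which load, move and release the ribosome, 62, 47, 23 and 58 were called, and of 34 genes of ribosome biogenesis, which assemble the particle in the nucleolus, 32, 25, 11 and 33. The 301 annotated pseudogenes with a ribosomal protein symbol had a peak in 11, 3, 1 and 3 cases, and 287 had none in any list. Processed pseudogenes, which are copies of the mRNA inserted elsewhere without the parent promoter, were not separated from other kinds. Pseudogenes with other names were not included. The pseudogene list was chosen after the values were seen. How reads with several matches in the genome were treated is not stated in the sources used here.

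Calls in the shorter lists were mostly nested in those of the longer ones. Of the 86 promoters, 29 (33.7%) were called in all 4 libraries, beside 16.1% of all protein-coding promoters. A further 23 (26.7%, beside 21.1% of all) were called in all but Shh-/- replicate 1, and 27 (31.4%, beside 11.8% of all) in WT replicate 1 and Shh-/- replicate 2 alone. The 29 included the acidic stalk proteins Rplp0, Rplp1 and Rplp2, which recruit elongation factors, the core protein Rpl3 next to the peptidyl transferase centre, and Rps27a, which is made as a fusion with ubiquitin. Rpsa, which is also known as the laminin receptor, and Rps6, the substrate of the S6 kinases, were called in all but Shh-/- replicate 1. Of the 80 ribosomal protein promoters called in both longer lists, WT replicate 2 held 65.0% and Shh-/- replicate 1 37.5%. Of the 10961 such promoters among all protein-coding genes, these shares were 74.4% and 34.2%.

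Genotype-specific calls were almost absent among the members. Rpl23 was the one promoter with a peak in WT replicates 1 and 2 and none in Shh-/-, 1 of 86 (1.16%) beside 1.53% of all protein-coding promoters, so the share of members is near the background. No member had a peak in both Shh-/- replicates and none in WT, and over all protein-coding promoters this was the case for 0.00456%. The Rpl23 peaks had widths of 690 and 418 bp and scores of 111 and 66 in WT replicates 1 and 2, and stood at percentile 23.6 and 38.1 of their lists. Rpl38 was also outside the nested order, with no peak in WT replicate 2 but one in the other three. Rps4x had a peak in the longest list, WT replicate 1, alone.

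**Figure D2:**
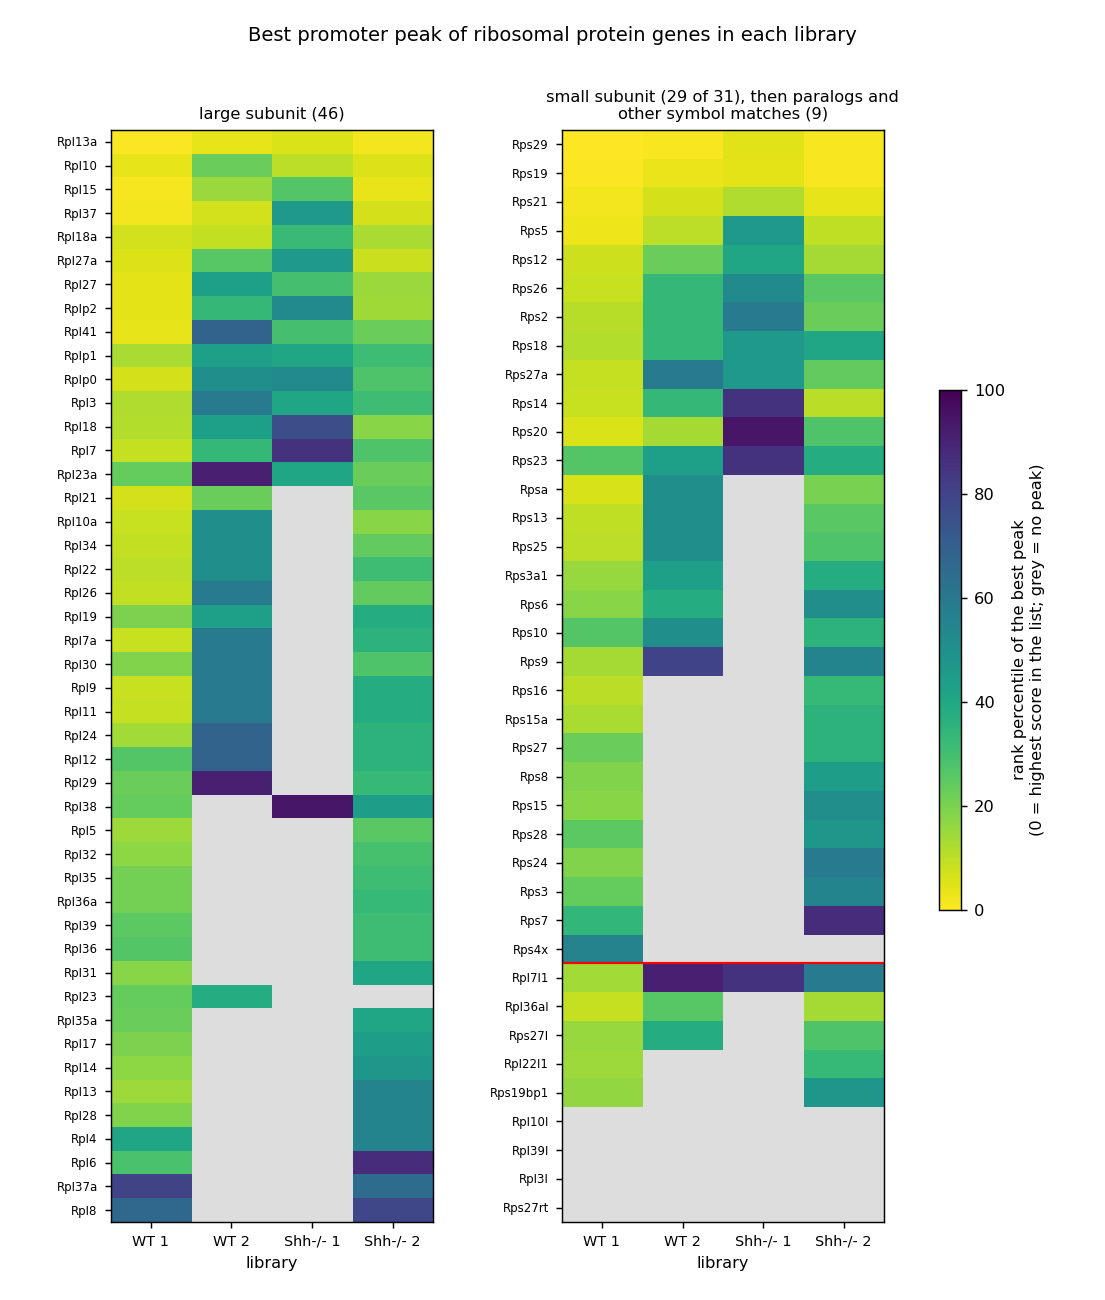
Rank percentile of the best promoter peak (colour, 0 is the highest score of the list, grey is no peak) for each gene shown (rows) in each library (columns), with the 46 large subunit genes on the left and 29 of the 31 small subunit genes followed by the 9 paralogs and symbol matches (under the red line) on the right. Rows are ordered by the number of libraries with a peak and then by the mean percentile; grey cells lie mostly in WT replicate 2 and Shh-/- replicate 1, and 4 genes at the lower right are grey throughout.

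Peaks were then ranked within their own list by the score that came with them, and the rank of the best peak of a promoter was given as a percentile of the list, so that 0 is the highest score. Among promoters with a peak, the median percentile of the ribosomal protein genes was 13.7, 43.7, 45.9 and 31.1, beside 17.8, 33.3, 40.7 and 31.1 for all protein-coding promoters with a peak. By the median, the ribosomal protein promoters thus ranked better than all promoters in WT replicate 1, level with them in Shh-/- replicate 2 and worse in the other two lists. In WT replicate 1, 31 of the 82 peaks were in the best 10% of the list, against 7 of 53, 3 of 30 and 10 of 80 in the other libraries. The share of all protein-coding promoters in the best 10% was not counted. The first quartile of the percentile was 8.305, 25.78, 29.53 and 22.57 for the members. For all protein-coding promoters with a peak it was 8.004, 16.62, 18.09 and 14.25, so the members did not stand out at the top by this measure. The weakest promoter peak of a list stood at percentile 79.5, 91.0, 94.0 and 87.2.

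The leading promoters, those with the lowest mean percentile over the 4 lists, ranked high in each list. Rps29, a small zinc-binding protein of the 40S head, had percentiles of 0.358, 0.990, 4.38 and 0.913, and its peaks were 1131, 1105, 902 and 1217 bp wide. Rps19, a 40S protein mutated in Diamond-Blackfan anaemia, had percentiles of 0.439, 2.85, 3.98 and 0.948. Rpl13a, a 60S protein that also acts in a translational silencing complex, had percentiles of 0.485, 3.62, 5.64 and 1.75. In WT replicate 1 and Shh-/- replicate 2 these 3 genes held the first places among the members, in this order. Rps21 had percentiles of 1.72, 6.42, 11.8 and 3.81.

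A non-coding gene, Rn7s1, lies beside Rps29 on the opposite strand. It encodes 7SL RNA, the scaffold of the signal recognition particle, which has many near-identical copies in the genome. The part of Rn7s1, and of reads shared among its copies, in the rank of the Rps29 peak was not tested.

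At the other end of the 29, Rpl7l1 had percentiles of 14.04, 91.0, 85.4 and 59.3, Rps23 26.9, 43.7, 85.4 and 38.0, and Rpl23a 23.6, 91.0, 40.7 and 22.6. Rpl7 stood at 8.61, 33.3, 85.4 and 27.4 and Rpl18 at 11.3, 43.7, 76.0 and 17.9. Each of these genes ranked far weaker in at least 1 of the shorter lists than in WT replicate 1. Their spread over libraries was wider than that of the leading genes. Both sets were picked by their mean percentile over these same lists, so this contrast follows in part from the choice. Of the 29, 28 had their best rank in WT replicate 1 and 1, Rpl23a, in Shh-/- replicate 2. Over the 3524 protein-coding promoters called in all libraries, 92.2% ranked best in WT replicate 1 and 6.73% in Shh-/- replicate 2.

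**Figure D3:**
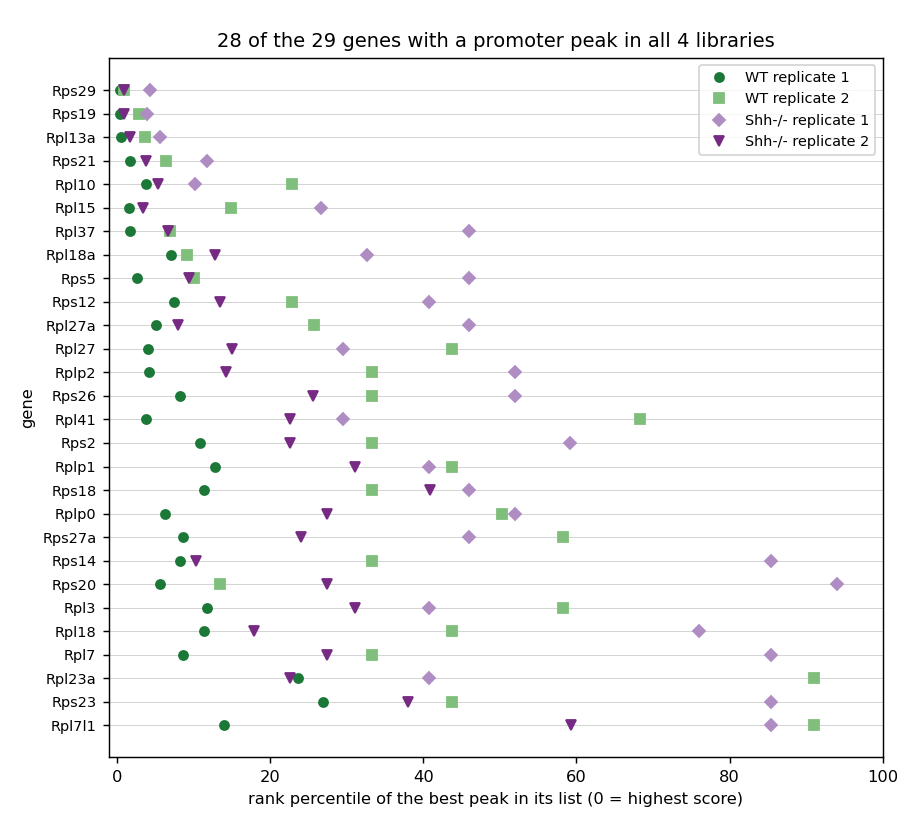
Rank percentile (x axis, 0 is the highest score of the list) of the best promoter peak in each library (colour and shape) for 28 of the 29 genes called in all 4 libraries (rows), ordered by the mean percentile. Rps29, Rps19 and Rpl13a lie below percentile 6 in every library, while points of WT replicate 2 and Shh-/- replicate 1 spread towards 94.0 in the lower rows.

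The order of the members was shared among libraries. Across members with a peak in both lists, Spearman's rho between percentiles was 0.777 for the longest lists, WT replicate 1 and Shh-/- replicate 2 (80 genes), 0.654 for the WT libraries (53 genes) and 0.708 for the Shh-/- libraries (30 genes). The lowest was 0.471, between WT replicate 2 and Shh-/- replicate 1 (29 genes). These are descriptions across genes, which share base composition and are not independent replicates. The rho of a pair of libraries of 1 genotype was not above that of the pair of long lists from different genotypes. These values rest on different sets of genes, so they do not compare the pairs on equal terms.

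Genes with roles or phenotypes of note were spread over this order. Rplp0 had percentiles of 6.34, 50.3, 52.0 and 27.4, Rplp1 12.8, 43.7, 40.7 and 31.1, and Rplp2 4.17, 33.3, 52.0 and 14.2. Rpl3 had 11.8, 58.3, 40.7 and 31.1, and Rps27a 8.61, 58.3, 45.9 and 24.1. Rpsa stood at 5.90, 50.3 and 20.0 and Rps6 at 17.8, 38.1 and 50.7 in the libraries other than Shh-/- replicate 1. For the stalk genes, the values of a WT and a Shh-/- library overlapped, since WT replicate 1 was the lowest and WT replicate 2 was above Shh-/- replicate 2.

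Among the genes with known developmental phenotypes, Rpl38 (the tail-short gene) had percentiles of 23.6, 94.0 and 43.8 in WT replicate 1, Shh-/- replicate 1 and Shh-/- replicate 2. Rpl24 (belly spot and tail) was called in all but Shh-/- replicate 1, at 14.04, 68.3 and 35.4, and Rpl27a (sooty foot ataxia) in all, at 5.12, 25.8, 45.9 and 8.02. Rps20, which with Rps19 gives dark skin when mutated, stood at 5.68, 13.5, 94.0 and 27.4. Rpl5 and Rpl11, which hold back Mdm2 when ribosome assembly fails, differed in their calls. Rpl11 had a peak in 3 lists (8.61, 58.3 and 38.0 in WT replicates 1 and 2 and Shh-/- replicate 2) and Rpl5 in 2 (14.6 and 25.6 in WT replicate 1 and Shh-/- replicate 2). Rps7 had 33.7 and 87.2 in the same pair of libraries. Rps14, a gene of marrow failure, had percentiles of 8.30, 33.3, 85.4 and 10.4. Both WT values of Rps20 lay below both of its Shh-/- values, and those of Rpl27a and Rps14 overlapped between the genotypes. Rps18 had the same order as Rps20, at 11.3, 33.3, 45.9 and 40.8. How many members, or promoters of all genes, had this order was not counted, and it was not tested. WT replicate 1 gave the best rank at 92.2% of the 3524 protein-coding promoters called in all libraries.

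The X-linked members, 4 in number, differed in rank. Rpl10, which joins the 60S subunit late, was called in all 4 libraries, at 3.84, 22.9, 10.1 and 5.35. Rpl36a had 21.1 and 33.1 and Rpl39 25.1 and 31.1 in WT replicate 1 and Shh-/- replicate 2, beside medians of 13.7 and 31.1 for all members. Neither had a peak in WT replicate 2 or Shh-/- replicate 1, as was the case for 27 of the 86 members called in the longer lists alone. Rps4x had 1 peak, in WT replicate 1, 223 bp wide, with a score of 38 at percentile 55.3. Its printed promoter holds a pair of GC boxes and no pyrimidine tract at the start site. Sex of the embryos is not given in the labels.

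Among the weakest core genes of the longer lists were the 60S genes Rpl37a, Rpl8 and Rpl6 and the 40S gene Rps7. Rpl37a had percentiles of 79.5 and 64.6, and Rpl8 66.3 and 78.7, in WT replicate 1 and Shh-/- replicate 2. Rpl6 stood at 28.8 and 87.2, and the values of Rps7 are given above. None of the 4 had a peak in the other two lists. Their peaks were narrow, from 224 bp for Rpl8 in Shh-/- replicate 2 to 593 bp for Rps7 in the same library.

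Peaks sat on the start sites. The best peak covered the representative TSS in 77 of 82, 44 of 53, 23 of 30 and 74 of 80 cases (93.9, 83.02, 76.7 and 92.5%), beside 76.2, 71.1, 58.7 and 78.2% for all protein-coding promoters with a peak. The median summit was at -25.5, -35.0, -87.0 and 24.0 bp from the TSS, with negative values upstream. Coverage of the members reached its highest value within 100 bp of the TSS in each library, at 93.0% 50 bp downstream, 52.3% 50 bp upstream, 29.1% 100 bp upstream and 88.4% 50 bp downstream. The highest coverage of all protein-coding promoters was 48.5, 28.5, 11.3 and 41.7%, and that of the mitochondrial ribosomal proteins 92.3, 52.6, 19.2 and 82.1%.

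**Figure D4:**
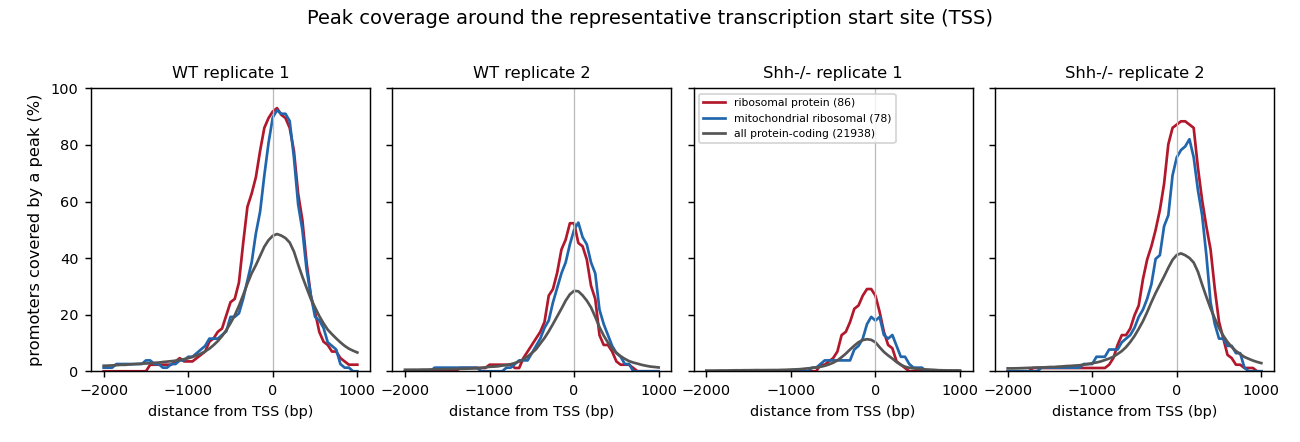
Share of representative start sites covered by a peak (y axis, percent) at each distance from the TSS (x axis, bp, negative is upstream, in steps of 50 bp) in the 4 libraries (panels), for the 86 ribosomal protein genes, the 78 mitochondrial ribosomal protein genes and all 21938 protein-coding genes. The ribosomal protein curve reaches 93.0, 52.3, 29.1 and 88.4% within 100 bp of the TSS, and the highest point of Shh-/- replicate 1 lies upstream.

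A few best peaks lay elsewhere in the window. The best peak of Rpl18 lay -2871, -2844 and -2792 bp from its representative TSS in WT replicate 1, Shh-/- replicate 1 and Shh-/- replicate 2, in the window of an upstream annotated start of Rpl18 near Sphk2, and at -38 bp in WT replicate 2. That of Rpl41, the shortest ribosomal protein, lay at 1572 bp in WT replicate 1, in a window shared with Zc3h10, and at -8, 119 and 100 bp in the other lists. In all, 17, 12, 6 and 16 of the best peaks were also the best peak of another protein-coding gene through its own start sites, and 0 were shared by a pair of members. Peaks that reached the window of another gene without being its best peak are not in these counts. An example is Rpl35, whose best peaks in WT replicate 1 and Shh-/- replicate 2 covered the start of Arpc5l. The widest peaks, 1959 and 2155 bp at Rpl7 in WT replicate 1 and Shh-/- replicate 2, also reached the window of Rdh10, a retinol dehydrogenase gene. For such peaks the accessibility of the genes cannot be told apart.

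Divergent gene pairs were counted as well. A protein-coding gene started on the opposite strand within 1 kb upstream at 12 of the 86 (13.95%) and at 7.95% of all protein-coding genes. The share was 29.5% for mitochondrial ribosomal proteins, 26.5% for ribosome biogenesis genes and 16.2% for translation factors, above that of the members in each case. Examples are Rps28 with Ndufa7, whose starts are 10 bp apart, Rps27 with Rab13 (44 bp), Rpl9 with Lias (53 bp) and Rpl15 with Nkiras1 (69 bp). The 12 were called in 12, 8, 4 and 12 cases and the other 74 in 70, 45, 26 and 68. The median percentiles of the divergent promoters with a peak were 11.3, 51.0, 45.9 and 35.4, and those of the others 14.04, 43.7, 43.3 and 31.1.

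The width of the promoter peaks was described next. The median width of the best peak was 750, 418, 394 and 664.5 bp, beside 772, 513, 392 and 706 bp for all protein-coding promoters with a peak. The widths ranged from 223 to 1959 bp in WT replicate 1, 207 to 1105 bp in WT replicate 2, 215 to 902 bp in Shh-/- replicate 1 and 224 to 2155 bp in Shh-/- replicate 2. Wider peaks ranked better, with Spearman's rho between width and percentile of -0.526 (82 genes), -0.652 (53), -0.613 (30) and -0.565 (80). Both come from the same signal, so this is a description of the peak caller's output.

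Base composition was read over 300 bases, from 250 before the TSS to 50 after it. The median GC content of the members was 56.0%, equal to that of all protein-coding promoters (56.0%), with a narrower middle range, 52.4 to 60.1% against 47.7 to 64.0%. The median ratio of observed to expected CpG dinucleotides was 0.853, against 0.556 for all. The DNA at the summits, over 200 bases, had a median GC of 61.0, 61.5, 57.5 and 61.0%, and for all protein-coding promoters with a peak 65.0, 66.5, 60.5 and 66.5%. Among promoters with a peak, those of the members were also lower in GC over the 300 bases. Of the promoters called in both longer lists and in WT replicate 2, the median GC was 58.3% for 52 members and 63.0% for all 8155 protein-coding genes.

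The share of promoters with a peak rose with GC content over all protein-coding genes, and the members departed from this in the low quartiles. In the lowest quartile of promoter GC (up to 47.3%), 90.0, 40.0, 40.0 and 90.0% of 10 members were called, against 17.0, 9.53, 4.49 and 13.9% of all promoters. In the second quartile 28, 13, 7 and 27 of 31 members were called (90.3, 41.9, 22.6 and 87.1%), against 48.8, 25.9, 12.3 and 37.4%. In the third it was 37, 28, 16 and 36 of 37 (100, 75.7, 43.2 and 97.3%), against 82.0, 52.1, 25.5 and 68.0%. In the highest quartile (64.0% and above) it was 8, 8, 3 and 8 of 8, against 93.1, 68.9, 26.5 and 85.0%. The difference between the members and all promoters was largest in the lowest quartile in each library but WT replicate 2, where it was slightly larger in the highest. Rpl41, with the lowest GC of the set at 36.7%, was called in all 4 libraries, as was Rps26 with 43.3%.

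**Figure D5:**
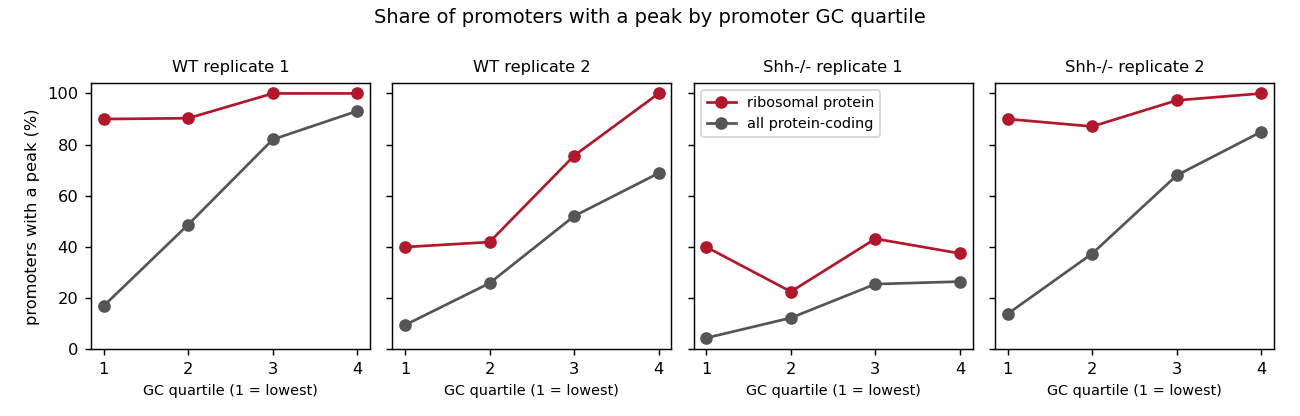
Share of promoters with a peak (y axis, percent) in each quartile of promoter GC content over all protein-coding genes (x axis, 1 is the lowest) in the 4 libraries (panels), for the 86 ribosomal protein genes (10, 31, 37 and 8 per quartile) and all protein-coding genes. The ribosomal protein points start at 90.0, 40.0, 40.0 and 90.0% in the lowest quartile, where all promoters are at 17.0, 9.53, 4.49 and 13.9%.

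Within the members, GC content went with rank in the longer lists. Spearman's rho between promoter GC and percentile was -0.433 in WT replicate 1 (82 genes) and -0.401 in Shh-/- replicate 2 (80 genes), a better rank at higher GC, and -0.232 (53 genes) and -0.0998 (30 genes) in the other two. Of the 80 members called in both longer lists, the 52 also called in WT replicate 2 had a median GC of 58.3%, against 53.5% for the 28 that were not. For Shh-/- replicate 1 these values were 56.8% for 30 genes and 55.8% for 50. The members called in the shorter lists also ranked better in WT replicate 1. The median percentile there was 8.61 against 20.5 for calls of WT replicate 2, and 6.67 against 17.8 for calls of Shh-/- replicate 1.

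Sequence elements were counted in the same 300 bases on both strands. The ETS site CCGGAAGT was present at 14 of 86 (16.3%), against 5.04% of all protein-coding promoters, the YY1 site AAGATGGC at 6 (6.98% against 3.14%), the GC box GGGCGG at 46 (53.5% against 45.4%) and TATAAA at 9 (10.47% against 12.7%). A pyrimidine tract started within 5 bases of the TSS at 28 of 86 (32.6% against 17.9%) and exactly at the TSS at 11 (12.8% against 2.26%), as far as the annotated start gives the true one. Exact letters were searched, so sites that differ by a base are not counted. Ribosome biogenesis genes held the ETS site most often, at 35.3% of 34, mitochondrial ribosomal proteins at 16.7% of 78 and translation factors at 14.7% of 68. The tract within 5 bases of the TSS was present at 30.9% of translation factors, close to the share of the members, and at 23.5% of ribosome biogenesis genes and 21.8% of mitochondrial ribosomal proteins. The tract exactly at the TSS was present at 2.94, 2.94 and 5.13% of these lists. Mitochondrial ribosomal proteins held the YY1 site at 14.1%, more often than the members, and translation factors held the GC box at 76.5%.

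Promoters with and without the ETS site were then set side by side. All 14 were called in the longer lists, 12 in WT replicate 2 and 7 in Shh-/- replicate 1, against 68, 41, 23 and 66 of the 72 without it. The median percentiles were 8.97, 35.7, 45.9 and 25.7 with the site and 14.6, 43.7, 40.7 and 33.1 without it. For the pyrimidine tract, 27, 19, 11 and 27 of 28 were called with it and 55, 34, 19 and 53 of 58 without it, and the median percentiles were 12.8, 43.7, 40.7 and 29.2 against 14.04, 43.7, 45.9 and 33.1. No test was made on these members, since the promoters of a library are not replicates. Among the printed genes, Rpl37 (ETS site and tract) had percentiles of 1.66, 7.0, 45.9 and 6.63 and Rps18 (a pair of ETS sites) 11.3, 33.3, 45.9 and 40.8. Rpl30 (YY1 site and tract) was called in all but Shh-/- replicate 1, at 18.8, 58.3 and 27.4. The leading genes Rps19 and Rpl13a hold neither the ETS site nor the tract, as defined above, in their printed stretches.

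WT and Shh-/- libraries were compared with 1 value per library and a two-sided exact permutation test, for which 2 libraries against 2 cannot give a p below 0.333. The share of ribosomal protein promoters called was 78.5% ± 23.8 in WT (SD, n = 2) and 64.0% ± 41.1 in Shh-/- (SD, n = 2), a difference of 14.5 percentage points (exact permutation p = 0.667, Benjamini-Hochberg adjusted over 4 tests 0.889). The groups overlapped, since WT replicate 2 was below Shh-/- replicate 2. Once the share of all protein-coding promoters was subtracted, the excess of the members was 28.7 ± 8.89 points in WT and 29.7 ± 17.1 points in Shh-/-, a difference of -1.02 points (exact permutation p = 1, adjusted 1). This difference is far below the spread between the libraries of a genotype. The excess was 34.9, 22.4, 17.6 and 41.7 points in the single libraries.

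The median percentile was 13.7 and 43.7 in the WT libraries (mean 28.7, n = 2) and 45.9 and 31.1 in the Shh-/- libraries (mean 38.5, n = 2), a difference of -9.78 (exact permutation p = 0.667, adjusted 0.889). The median width was 584 ± 235 bp in WT and 529 ± 191 bp in Shh-/-, a difference of 54.8 bp (exact permutation p = 0.667, adjusted 0.889). None of these 4 differences exceeded the spread within a genotype, and the design is too small to show a difference of this size or to show that there was none. When lists were shortened to the top 5589 peaks by score, as many as Shh-/- replicate 1 holds, 43, 30, 30 and 36 of the 86 members were called, beside 25.5, 25.4, 17.3 and 25.2% of all protein-coding promoters. At this size Rpl23 no longer separated the genotypes, and Rpl23a was called in both Shh-/- and in no WT library. The share of all protein-coding promoters with such calls at this size was not counted.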

How the data were processed

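The authors sequenced paired-end ATAC-seq libraries of 2 WT and 2 Shh-/- samples and called peaks on each library separately with MACS2 (q-value cutoff 0.05, window of 200 bp). The submitters' processing notes name Bowtie2 2.2.5, MACS2 2.1.0 and mm10 (GRCm38). Read filters and any shift for the Tn5 cut are not given in the sources used here. The deposited files give each peak's position, a summit offset in bp and a score, which by the caller's format is 10 times −log10 of the q-value, a scale the files do not state. The fold, p-value and q-value columns held 0 throughout and were not used. Scores served only to rank peaks within a list, with tied peaks sharing their mean rank, since the lists hold no read counts.

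Peaks were placed on GENCODE M21 start sites. The representative TSS was that of the principal transcript. Groups came from genotype labels, and same-numbered replicates are not stated to be pairs. Members and gene lists were chosen with earlier results of these data known, and the genes named are those with known roles or phenotypes, the paralogs, members without a peak in a list other than that of Shh-/- replicate 1 (most of these given as counts), genotype-specific members and the 5 best and 5 weakest of those called everywhere. Others were named after their values were seen. The values of a few members and promoter sequences are not reported here, but the counts and medians include them. Scripts used Python 3.11.15, numpy 2.4.6, pandas 2.3.3, scipy 1.17.1 and pysam 0.24.0, and calls and tests were tested on simulated data. Alternatives were a score of at least 50, equal list size, summit in the window, a window of 500 bp on each side, the representative TSS alone, core genes, autosomes, leaving out each library, other ties, the nearest peak and a replicate block.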

Additional observations from a re-analysis of the deposited data

How the results depend on the processing

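Of 115 alternative values, 95 kept the direction or stayed within 1.5 times the reported count, 9 turned the direction and 11 counts moved by more. No p of the 4 comparisons can pass a threshold, so their directions alone were followed. Leaving out each library in turn gave -14.5 to 43.6 points for the share called, -13.1 to 11.0 points for the excess over all promoters, -24.8 to 5.20 for the median percentile and -111 to 221 bp for the median width. The share reversed without WT replicate 1 (-2.33) or Shh-/- replicate 1 (-14.5), the excess without WT replicate 2 (5.26) or Shh-/- replicate 2 (11.0), the percentile without WT replicate 1 (5.20), and the width without WT replicate 1 (-111) or Shh-/- replicate 1 (-80.5). The count called in all libraries left went from 29 to 52 (lowest 29, highest 52, reached without Shh-/- replicate 1), the WT-specific count from 1 to 24 (24 without Shh-/- replicate 2, and 2, Rpl23 and Rps4x, without WT replicate 2) and the Shh-specific count from 0 to 1 (Rpl38, without WT replicate 1). The 52 were the 29 called in all 4 libraries and the 23 called in all but Shh-/- replicate 1. Those sets of calls were held by 16.1 and 21.1% of all protein-coding promoters. The 24 were the same 23 and Rpl23, whose calls were held by 1.53% of all. The calls of Rps4x and Rpl38 in the 4 libraries were held by 8.80 and 1.02% of all. With the representative TSS alone the excess turned to 0.174 points. With lists of equal size the percentile difference turned to 6.44, the members called were 43, 30 and 36 in WT replicate 1, WT replicate 2 and Shh-/- replicate 2, the WT-specific count was 0 and the Shh-specific count 1. A score of at least 50 left 30 members in WT replicate 2 (34.9%, beside 25.4% of all protein-coding promoters) and 18 in all 4 libraries. At equal list size and at this score, the shares of all promoters called in all 4 libraries or in a single genotype were not counted. Apart from the settings that themselves shorten the lists, the cause of these changes was not tested.

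With the replicate number as a block, the 4 differences were 14.5 points, -1.02 points, -9.78 and 54.8 bp, equal to the values without the block, and the exact permutation within pairs cannot give a p below 0.5. The labels name no shared litter or day, so the numbers are not known to pair the libraries. The deviations of same-numbered libraries from their group means correlated at -0.215 over 21938 promoters. Replicate 1 held the longer list in WT (39080 against 11973 peaks) and the shorter list in Shh-/- (5589 against 18459). The correlation therefore cannot tell whether the libraries were paired. With the numbers crossed, an alternative chosen after seeing the data, 0 of the 4 comparisons passed a threshold of 0.05, as with the block. The read depth of the single libraries is not in the lists, so how far it limits each count could not be tested.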
